A study of Mus musculus with 2 samples.

Results

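The 39 genes described here are type I interferon-stimulated genes, taken by symbol from a list and all found among the 27998 genes listed in the files. Type I interferons (the interferon-alpha genes and interferon-beta) bind the receptor pair Ifnar1 and Ifnar2, and the kinases Jak1 and Tyk2 then act on the transcription factor complex ISGF3, which holds Stat2 and Irf9. It binds a promoter element called ISRE and switches on many antiviral genes. Blood leukocytes also express many of these genes at a low level without infection. The members comprise antiviral effectors (Ifit, Oas, Mx1, Rsad2, Isg15, Isg20, Bst2 and others), nucleic acid sensors (Ddx58, Ifih1, Zbp1), signalling genes (Stat2, Irf7, Irf9, Usp18), interferon-inducible GTPases (Gbp7, Ifi47, Igtp), Schlafen genes (Slfn1, Slfn2, Slfn5, Slfn8) and a few others.

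Peripheral blood mononuclear cells came from female C57Bl/6 mice aged 10 weeks. The mutant group, MvkV377I/del91, carried a different Mvk allele on each chromosome, and the control group was wildtype (Mvk+/+). Mvk encodes mevalonate kinase, an early enzyme of isoprenoid and sterol synthesis, and impaired MVK causes an autoinflammatory disease in people. Blood of 3 mice was pooled per genotype, red cells were lysed, and live cells without the red cell antigen Ter119 were sorted into 1 droplet library of 3' ends per genotype. With 1 library each, genotype, mouse pool and library cannot be told apart, no test between genotypes is possible, and every interval below is a 95% interval for counting error only.

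The mutant library held 14513059 UMIs (unique molecular identifiers, each marking 1 captured RNA molecule) and the wildtype library 15385199. A cell was a barcode with at least 800 UMIs, at least 200 genes and at most 10% mitochondrial UMIs, which gave 4190 mutant and 5225 wildtype cells with median depths of 1968 and 2036 UMIs. Cells were typed by marker UMIs: 2254 mutant and 2786 wildtype T cells, 1240 and 1104 B cells, 191 and 876 NK cells, and 102 and 105 monocytes. In each type every defining marker of its own list was detected in both libraries. Both libraries shared 28 cell barcodes, and leaving those cells out moved no summed ratio given below outside its counting interval. Haemoglobin UMIs stood apart between the libraries: among UMIs in barcodes with at most 20 UMIs, called free RNA here, they were 14.2 times as frequent in the mutant (13.5 to 14.9). Mvk itself had 30 UMIs in mutant and 45 in wildtype T cells, 6.02 and 6.66 CPM (UMIs of a gene per 1000000 UMIs). A count of 3' tags does not tell the alleles apart, so it does not check the genotype.

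The promoters of the members carried the ISRE core often, and the windows with more than 1 match are printed to show what that element looks like in the genes followed below. The search was for GAAA, any 2 bases, GAAA, on either strand (TTTC, any 2 bases, TTTC when read on the other), from 250 bases before to 50 bases after each start in RefSeq promoters of build GRCm38.p6. Matches may overlap, and capitals mark every base inside a match. The sequences are from RefSeq, on the strand of the gene, 5' to 3'.
Isg15, chr4:156200865-156200906, minus strand: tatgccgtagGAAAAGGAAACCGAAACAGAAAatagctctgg
Ifit1, chr19:34640775-34640823, plus strand: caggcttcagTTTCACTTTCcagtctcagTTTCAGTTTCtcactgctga
Ifit3, chr19:34583363-34583426, plus strand: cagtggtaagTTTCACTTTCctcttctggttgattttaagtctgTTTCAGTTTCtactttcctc
Oas1a, chr5:120907520-120907555, minus strand: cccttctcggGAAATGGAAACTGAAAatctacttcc
Bst2, chr8:71537577-71537612, minus strand: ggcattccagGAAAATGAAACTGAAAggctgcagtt
Ddx60, chr8:61928024-61928087, plus strand: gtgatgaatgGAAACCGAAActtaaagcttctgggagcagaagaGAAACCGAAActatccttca

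A promoter was at hand for 32 of the 39 members, and 20 of these (62.5%) held the core at least once, against 1079 of 27025 genes (3.99%). More than 1 match was found in 6 members (18.8%) and in 0.266% of all genes. The GAS element, known for interferon-gamma responses and searched as TTC, any 3 bases, GAA, was found in 7 members (21.9%) and 9.55% of all genes. Among members with no ISRE core match in this window were Irf7, Irf9, Slfn1, Slfn2, Ifi47 and Oasl1. A match describes letters, not binding, and a missing match says only that these letters are not in this window.

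Summed over the 39 genes, monocytes had the highest level in both libraries, followed by T cells, B cells and NK cells. Levels are UMIs of all cells of a type in a library, scaled to CPM. The summed level in monocytes was 5227 CPM in the mutant (4989 to 5474) and 3691 CPM in the control library (3475 to 3916). In T cells it was 2369 CPM (2326 to 2412) and 2117 CPM (2082 to 2152). B cells had 2035 CPM (1979 to 2092) and 1673 CPM (1619 to 1728), and NK cells 1326 CPM (1218 to 1441) and 1193 CPM (1140 to 1247). The intervals of neighbouring types did not overlap in either library. The step from B to NK cells rested on 1 gene: without Ifi27l2a the level in B cells was 1.06 times that in NK cells in the mutant (0.961 to 1.16) and 1.04 times in the control library (0.982 to 1.11). When cells with any marker UMI of another type were left out, wildtype monocytes and T cells had almost the same summed level (ratio 0.998, 0.831 to 1.19).

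**Figure D1:**
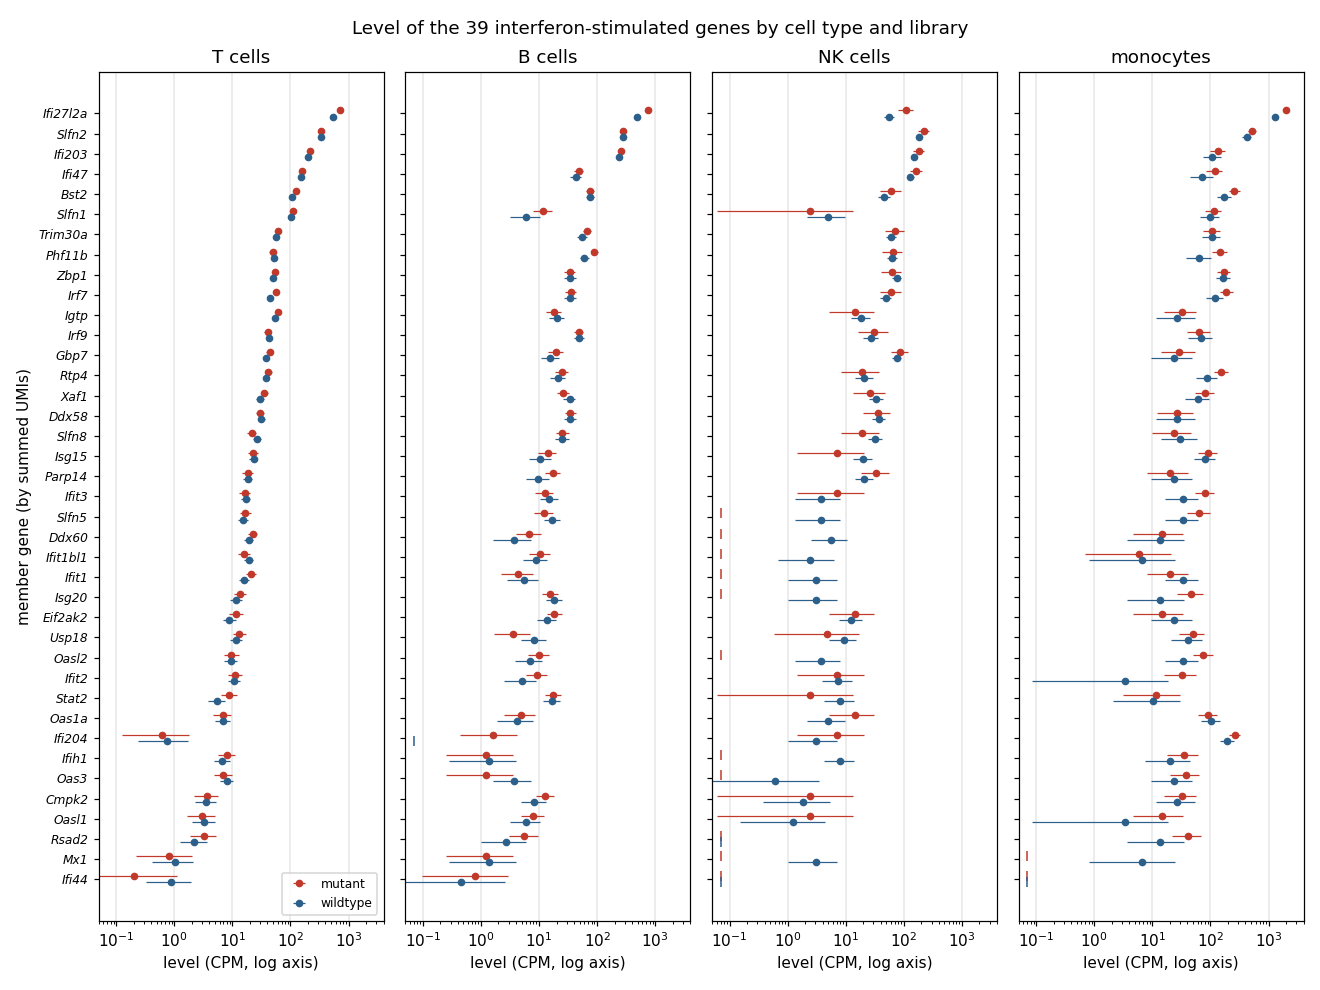
Level (CPM, log axis) of each of the 39 genes in T cells, B cells, NK cells and monocytes, mutant in red and wildtype in blue, with 95% counting intervals; ticks at the left edge mark 0 UMIs. Genes are ordered by their UMIs over both libraries, from Ifi27l2a with 11247 UMIs to Ifi44 with 10, and Slfn2 lies at 334 and 335 CPM in the T cell panel.

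A few genes made up most of the sum. Of 40214 member UMIs in the 4 types, Ifi27l2a, which encodes a small interferon-induced membrane protein, held 28.0%, Slfn2 14.7%, Ifi203 9.97%, Ifi47 5.87% and Bst2 4.81%. Since each molecule is counted at its 3' end, levels of different genes count molecules and need no division by length, though capture can differ between genes. Ifi27l2a was at 698 CPM in mutant and 535 CPM in wildtype T cells, 752 and 487 CPM in B cells and 2024 and 1292 CPM in monocytes. In NK cells it was at only 110 and 56.2 CPM, and there Slfn2 and Ifi203 were the leading members. In free RNA Ifi27l2a was at 698 CPM in the mutant and 497 CPM in the control library, near its T cell level and well above its NK cell level.

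The antiviral effectors ranged from a tetherin detected in every type to genes almost without UMIs. Bst2 encodes tetherin, which holds budding virus at the cell surface. Its level was 123 CPM in mutant and 108 CPM in wildtype T cells, 75.8 and 75.1 CPM in B cells, 59.6 and 46.3 CPM in NK cells, and 258 and 173 CPM in monocytes. The libraries were close in B cells, and the mutant was higher in monocytes. Isg15, a ubiquitin-like modifier, was at 22.9 and 23.1 CPM in T cells, 14.0 and 10.5 CPM in B cells and 89.9 and 81.2 CPM in monocytes. Ifit3, an adaptor of the Ifit proteins that bind foreign RNA, was at 16.2 and 16.9 CPM in T cells, 12.4 and 15.1 CPM in B cells, and 81.2 and 33.8 CPM in monocytes. Wildtype monocytes rest on 10 UMIs of Ifit3, of which 5 lay in high cells, and without those cells Ifit3 was at 17.5 CPM there. In the more non-classical wildtype monocytes, defined below, Ifit3 had 0 UMIs and Isg15 was at 20.4 CPM, no higher than in T cells. Oas1a, a sensor of double-stranded RNA that makes the activator of RNase L, was at 6.82 and 6.81 CPM in T cells and 89.9 and 101 CPM in monocytes. At the low end, Mx1 had 24 UMIs and Ifi44 had 10 UMIs over all 4 types and both libraries, and Rsad2, which encodes viperin, had no UMI in NK cells. The sources used here do not state how reads shared by near-identical genes were counted, and this uncertainty applies to Ifit3 and Ifit3b, Ifit1 and Ifit1bl1, Oas1a and Oas1g, Slfn8 and its neighbours, and Ifi203 and Ifi204.

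The sensors and the HIN-200 genes had different orders of types. Ddx58, which encodes the RNA sensor RIG-I, was nearly even, at 30.1 and 31.2 CPM in T cells, 34.5 and 34.3 CPM in B cells, 35.8 and 37.1 CPM in NK cells, and 26.1 and 27.1 CPM in monocytes. Zbp1, a sensor of Z-form nucleic acid, was at 54.4 and 49.5 CPM in T cells and 168 and 166 CPM in monocytes. Ifi203 and Ifi204, both of the HIN-200 family, went opposite ways. Ifi203 was highest in B cells (256 and 238 CPM) and lowest in monocytes (136 and 108 CPM). Ifi204 was at 261 and 196 CPM in monocytes and at 0.602 and 0.740 CPM in T cells. A UMI of Ifi204 was seen in 38.2% of mutant and 25.7% of wildtype monocytes and in 0.133% and 0.179% of T cells, with median depths of 2892 and 2215 UMIs in monocytes and 2107 and 2301 UMIs in T cells.

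Among signalling genes Irf7, a transcription factor that amplifies interferon production, was at 56.0 and 44.0 CPM in T cells, 34.9 and 33.9 CPM in B cells, 59.6 and 48.8 CPM in NK cells, and 188 and 118 CPM in monocytes. Stat2 was highest in B cells in both libraries, at 17.6 and 16.5 CPM. The Schlafen genes had unlike patterns. Slfn1, known in mice for holding T cells in quiescence, was at 111 and 103 CPM in T cells, 11.6 and 5.95 CPM in B cells and 2.38 and 4.94 CPM in NK cells. Slfn2, needed for T cell quiescence in mice, was high throughout, from 219 and 185 CPM in NK cells to 525 and 426 CPM in monocytes. Over the 39 genes, 21 were highest in monocytes in both libraries, 3 in T cells (Ifit1bl1, Ddx60 and Igtp), 2 in B cells (Ifi203 and Stat2) and 2 in NK cells (Gbp7 and Ddx58), and 11 changed their highest type between libraries. NK cells were the lowest type for 18 genes in both libraries. These counts used no UMI minimum, and 2 members had no UMI in NK cells of either library. The same count was not made over all genes, so it describes the members only.

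Member UMIs were not spread evenly over cells. The median T cell had 4 member UMIs in both libraries, and 79 mutant (3.50%) and 97 wildtype T cells (3.48%) had none. At the other end, 44 mutant and 45 wildtype T cells had 20 or more, up to 91 UMIs in 1 mutant cell and 63 UMIs in 1 wildtype cell. Cells were called high when they had at least 10 member UMIs and at least 4 times the number their depth and type predicted. This gave 38 mutant (1.69%, 1.2 to 2.31%) and 39 wildtype T cells (1.40%, 0.997 to 1.91%). The shares overlapped within counting error. High T cells held 8.87% of the member UMIs of mutant T cells against 1.68% of all their UMIs, and 7.81% against 1.27% in the control library. Because those cells were chosen on the same UMIs, this describes the rule's outcome and is no finding. Their median depth was 1901 and 1986 UMIs, against 2112 and 2302 in the other T cells. Called without Ifi27l2a, it was 2166.5 and 1978 UMIs, against 2105.5 and 2302. The rule asks deeper cells for more member UMIs, so these depths depend on the rule and do not compare the cells independently of it. Thinned to 800 UMIs per cell, which left out no cell, the shares of high T cells were 1.02% and 0.682%.

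**Figure D2:**
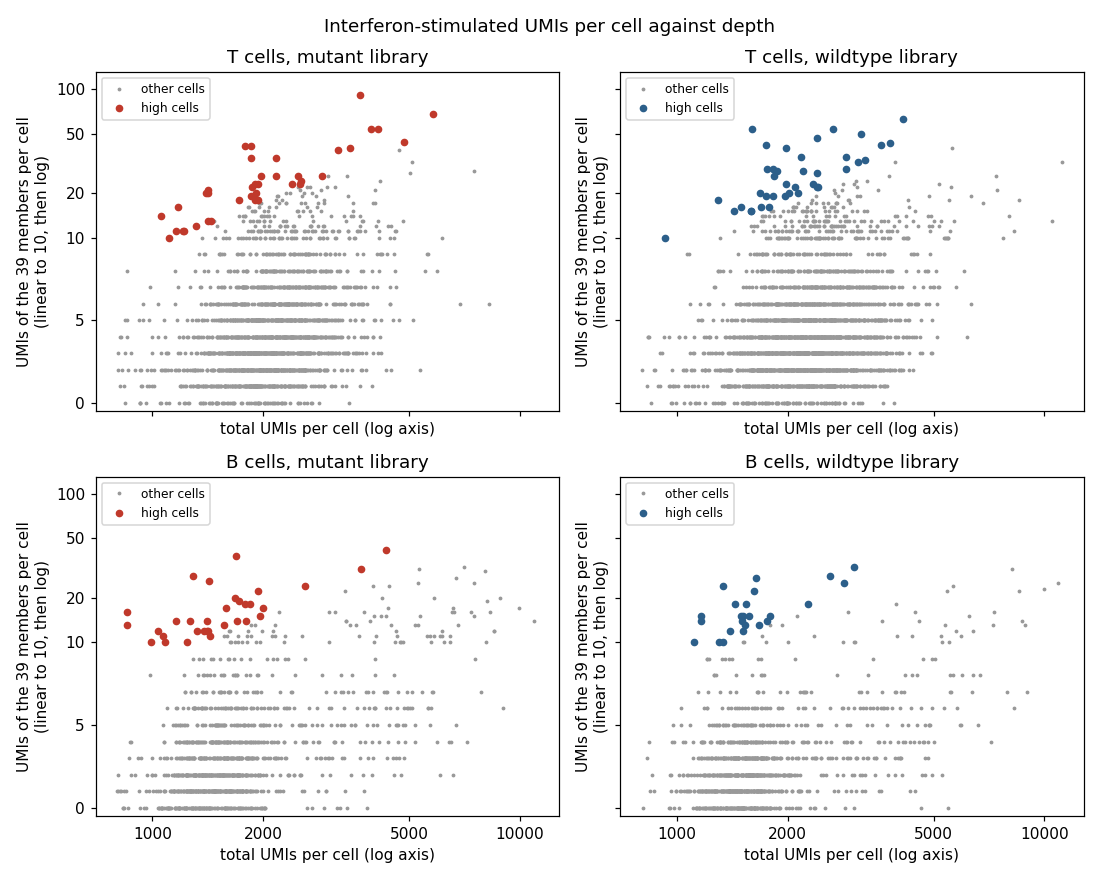
Member UMIs per cell (vertical axis, linear to 10 and log above) against all UMIs of the cell (horizontal axis, log) for T cells and B cells of each library; high cells are marked in colour and other cells are grey. High T cells (38 mutant, 39 wildtype) reach 91 and 63 member UMIs, and the rule that marks them takes depth into account.

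By the same choice, the median high T cell had UMIs of 11 members in the mutant and 12 in the control library, against 3 in other T cells, and the broadest carried 31 and 24 of the 39. To ask about each member without using it for the choice, high cells were called again from the other 38 genes. Of 33 members with at least 50 UMIs in T cells over both libraries, 32 were then higher in high than in other T cells in both libraries. Beside them stand 25.5% of the 8341 other genes that passed the same minimum of 50 UMIs. At least 4-fold in both were 19, beside 0.264% of those genes. The other genes were not matched to the members in UMI count, and for them high cells were called from all 39 members. A gene with few UMIs can have none in the high cells. The exception was Ddx58, at 0.770 times in the mutant (2 UMIs in high cells) and 3.50 times in the control library.

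Ifit3 was the most gathered gene in T cells. High cells held 33.3% of its UMIs in the mutant (27 of 81, 23.2 to 44.7%) and 27.2% in the control library (31 of 114, 19.3 to 36.3%), with 1.76% and 1.19% of all UMIs. Its level was 307 CPM in high and 11 CPM in other mutant T cells, and 387 and 12.4 CPM in wildtype T cells. The intervals of the 2 shares overlapped. In free RNA Ifit3 was at 10.1 and 4.34 CPM on 4 and 2 UMIs, so the level of the other mutant T cells was about that of free RNA. The other effectors at the top were Ifit1 with 16.2% and 27.1% of its UMIs in high cells, Isg15 with 18.4% and 21.8%, the exonuclease gene Isg20 with 13.2% and 24.4%, and Oas1a with 17.6% and 10.9%. Usp18, which encodes the protease that removes Isg15 from proteins and dampens the receptor, had 24.2% and 11.5%. The RNA sensor gene Ifih1 had 15% and 13.3%, Slfn5 14.5% and 12.5%, and Rtp4 14.9% and 11%. The shares of these 8 genes rest on between 5 and 34 UMIs in high cells.

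Several members were gathered little. High cells held 4.39% and 2.83% of Slfn2 UMIs, 3.25% and 3.75% of Slfn1 UMIs, 2.19% and 3.89% of Ifi47 UMIs, and 4.25% and 2.96% of Igtp UMIs. Ifi47 and Igtp encode GTPases of the immunity-related family, which interferon-gamma also induces. Irf9 was at 3.92% and 2.44%. Bst2 lay between, at 7.48% and 7.42%, or 4.47-fold and 6.59-fold higher in high cells. Ifi27l2a reached 2719 CPM in mutant and 3441 CPM in wildtype high T cells, 4.06-fold and 6.79-fold above other T cells, yet these cells held only 5.43% and 6.06% of its UMIs. Most Ifi27l2a UMIs thus lay in the other T cells.

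**Figure D3:**
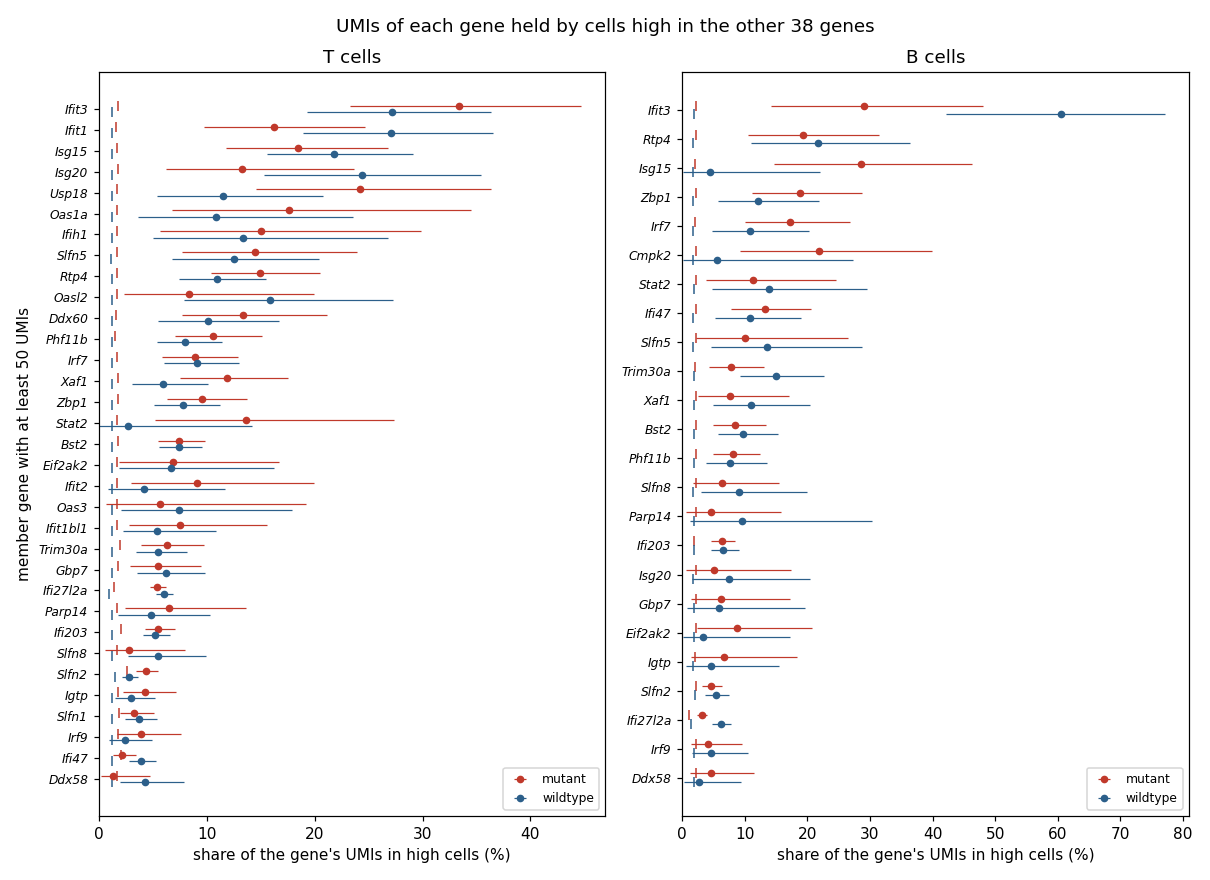
Share of each gene's UMIs (horizontal axis, %) held by cells that were high in the other 38 genes, for T cells and B cells, mutant in red and wildtype in blue with 95% counting intervals; vertical ticks give the share of all UMIs in those cells. Ifit3 leads in both panels, with 33.3% and 27.2% in T cells, and Irf9 and Slfn2 lie close to the ticks in the T cell panel.

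B cells showed a like pattern with fewer counts. High B cells numbered 32 in the mutant (2.58%, 1.77 to 3.62%) and 24 in the control library (2.17%, 1.40 to 3.22%), and 1.05% and 0.725% after thinning to 800 UMIs. All 24 members with at least 50 UMIs in B cells were higher in cells high in the other 38 genes in both libraries, beside 22.6% of 6765 other genes, and 9 of them at least 4-fold in both, beside 0.163%. As in T cells, the other genes were not matched in UMI count. Ifit3 had 9 of 31 UMIs in high B cells in the mutant (29.0%, 14.2 to 48.0%) and 20 of 33 in the control library (60.6%, 42.1 to 77.1%). Isg15 had 10 of 35 UMIs there in the mutant and 1 of 23 in the control library. Rtp4 had 19.4% and 21.7%, Zbp1 18.8% and 12.2%, and Irf7 17.2% and 10.8%. In NK cells no mutant cell of 191 was high, which allows a share of up to 1.91% (the upper bound of the exact interval), and 3 of 876 wildtype cells were (0.342%, 0.0707 to 0.998%). In monocytes 2 cells per library were high, and they held 139 of 1803 member UMIs in the mutant (7.71%) and 191 of 1091 in the control library (17.5%).

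Genes outside the members were also higher in the same cells. Among genes that were not members, 4.13% were at least 1.5-fold higher in high than in other T cells in both libraries (121 of 2927 with enough UMIs), and 3.31% in B cells (58 of 1751). Of a list of 40 other interferon-stimulated genes, 11 could be measured in high T cells and 10 of these were at least 1.5-fold higher in both libraries. Ly6a was at 429 and 525 CPM in high T cells against 76.9 and 77.4 CPM in the others, 5.57-fold and 6.78-fold higher, Daxx 5.84-fold and 3.70-fold, and Gbp2 4.62-fold and 4.03-fold. The eleventh gene, Nmi, was at 1.30-fold and 2.19-fold. In B cells 5 of 7 measured genes of that list passed in both libraries, with Ms4a4c at 2.49-fold and 3.91-fold.

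Antigen presentation genes moved less. In high T cells 6 of 14 measured genes of MHC class I presentation were at least 1.5-fold higher in both libraries, among them the peptide transporter gene Tap1 (2.54-fold and 2.78-fold) and the peptide loading gene Tapbp (2.71-fold and 1.72-fold). B2m and H2-D1 stayed at 1.38-fold and 1.36-fold, and at 1.18-fold and 1.21-fold. Of 10 housekeeping genes none passed in T or B cells. Of 10 measured receptor and signalling genes 2 passed in both libraries in T cells, beside 4.13% of the genes outside the members. Irf2, at 2.44-fold and 1.72-fold, was among them. The receptor gene Ifnar1 was at 1.57-fold and 1.16-fold and the kinase gene Jak1 at 1.07-fold and 1.30-fold. Samhd1, which lowers the nucleotide pool, was 2.78-fold and 2.84-fold higher.

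Markers of subsets and of other types were set beside the high T cells and high B cells. A Cd8a or Cd8b1 UMI was present in 9 of 38 mutant high T cells (23.7%) against 42.9% of the others, and in 14 of 39 wildtype high T cells (35.9%) against 50.5%. A Cd4 UMI was present in 21.1% and 23.1% of high and in 13.6% and 14.3% of other T cells. Any UMI of the monocyte list was present in 10.5% and 12.8% of high T cells against 18.8% and 12% of the others, any NK marker UMI in 5.26% and 2.56% against 7.76% and 21.6%, and any of the plasmacytoid dendritic cell list in 5.26% and 12.8% against 11.2% in both. B cell marker UMIs were present in 7.89% of mutant high T cells against 26.7%, and in 35.9% of wildtype high T cells against 19.5%. B cell markers were thus less frequent in high than in other T cells in the mutant and more frequent in the control library. A UMI of Vpreb3, a marker of transitional B cells, was present in 17 of 32 mutant high B cells (53.1%, 34.7 to 70.9%) against 28.0% of the others. In wildtype it was present in 8 of 24 (33.3%, 15.6 to 55.3%) against 26.9%. T cell marker UMIs were present in 12 of 32 mutant high B cells against 307 of 1208 others, and in 6 of 24 against 302 of 1080 in wildtype. UMIs of the monocyte, NK and plasmacytoid dendritic cell lists were less frequent in high B cells in both libraries. The part of these markers in the result was not tested.

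Between genotypes the summed level of the 39 genes was higher in the mutant in all 4 types, by little in lymphocytes. The mutant to wildtype ratio was 1.12 in T cells (1.09 to 1.15), 1.22 in B cells (1.17 to 1.27), 1.11 in NK cells (1.01 to 1.22) and 1.42 in monocytes (1.31 to 1.53). Without the high cells it was 1.11 (1.08 to 1.14), 1.22 (1.17 to 1.28), 1.16 (1.05 to 1.28) and 1.56 (1.44 to 1.69). The ratio was thus about the same without high cells in T and B cells. In NK cells, where all high cells were wildtype, leaving them out could only raise it, and in monocytes the wildtype pair held the larger share of member UMIs. Without Ifi27l2a it was smaller, 1.06 in T cells (1.03 to 1.09), 1.08 in B cells (1.03 to 1.14), 1.07 in NK cells (0.968 to 1.18) and 1.34 in monocytes (1.21 to 1.47). Free RNA of the members differed by 1.10 (0.997 to 1.21) and that of Ifi27l2a by 1.40 (1.17 to 1.68). With the free RNA profile subtracted, the summed ratios were 1.12, 1.23, 1.14 and 1.40.

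In T cells 33 of the 39 members reached 50 UMIs over both libraries. At least 1.5-fold higher in the mutant was 1 of them, Stat2, beside 2.20% of all genes measured, and none was at least 1.5-fold lower, beside 2.60%. Stat2 had 44 mutant and 37 wildtype UMIs, 8.83 and 5.48 CPM, a ratio of 1.61 (1.02 to 2.57), and it did not reach 1.5-fold with mitochondrial UMIs limited to 5%. Without the high cells Stat2 was at 1.44 (0.886 to 2.33) and Ifit1 at 1.54 (1.12 to 2.11), so the gene past 1.5-fold was then Ifit1. Ifi27l2a had 3478 and 3612 UMIs and a ratio of 1.30 (1.24 to 1.37), Irf7 1.27 (1.08 to 1.5), Ifit1 1.33 (1.01 to 1.76) and Bst2 1.14 (1.03 to 1.28). Slfn2 was at 0.997 (0.935 to 1.06), Isg15 at 0.990 (0.771 to 1.27) and Ifit3 at 0.963 (0.715 to 1.29), and Slfn8 was lowest at 0.801 (0.625 to 1.02). Most T cell members thus sat at ratios near 1. The median log2 ratio was 0.11 over the 33 members and 0.02 over all 8374 measured genes, and 72.7% of the members and 53.7% of all genes were above a ratio of 1.

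In B cells 3 of 24 measured members were higher in the mutant by at least 1.5-fold, beside 3.39% of all genes, and none was at least 1.5-fold lower, beside 2.61%. Parp14, an ADP-ribosyltransferase gene, had 43 and 21 UMIs (17.2 and 9.62 CPM) and a ratio of 1.79 (1.04 to 3.18). Cmpk2, a mitochondrial nucleotide kinase gene, had 32 and 18 UMIs and 1.56 (0.847 to 2.94). Ifi27l2a had 1876 and 1064 UMIs and 1.54 (1.43 to 1.67), and 1.27 (1.13 to 1.42) when cells with any marker UMI of another type were left out. The interval of Cmpk2 took in 1, without high cells it was at 1.29 on 25 and 17 UMIs, and Phf11b fell just short of the 1.5-fold line with 89.8 and 60.0 CPM (ratio interval 1.2 to 1.87). Slfn5 was lowest at 0.710 (0.423 to 1.18). The median log2 ratio was 0.07 over the 24 members and 0.02 over 6789 genes. Leaving out high cells moved Ifit3 in B cells most, by 1.81-fold, from a ratio of 0.822 (0.487 to 1.38) to 1.49 (0.716 to 3.21) on 22 and 13 UMIs. No member of T cells moved by more than 1.16-fold.

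In NK cells 1 of 14 measured members was at least 1.5-fold higher, beside 4.13% of all genes, and 1 was at least 1.5-fold lower, beside 8.96%. Ifi27l2a had 46 mutant and 91 wildtype UMIs, 110 and 56.2 CPM, a ratio of 1.95 (1.34 to 2.81). Both levels lay below those of free RNA, and with free RNA subtracted the ratio was 4.08. Slfn8 had 8 and 52 UMIs and 0.594 (0.243 to 1.26). The other 12 lay between, from Xaf1 at 0.786 (0.371 to 1.52) to Bst2 at 1.29 (0.783 to 2.05), and their intervals took in 1.

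Monocytes had the largest ratios. Of 14 measured members 5 were higher in the mutant by at least 1.5-fold, beside 6.76% of all genes measured there, and none was at least 1.5-fold lower, beside 6.44%. Phf11b had 50 and 19 UMIs, 145 and 64.3 CPM, a ratio of 2.26 (1.31 to 4.05). Rtp4 had 53 and 26 UMIs and 1.75 (1.07 to 2.91), Irf7 65 and 35 UMIs and 1.59 (1.04 to 2.47), and Ifi27l2a 698 and 382 UMIs and 1.57 (1.38 to 1.78). Ifi47 had 41 and 21 UMIs and 1.67 (0.966 to 2.98), so its interval took in 1. Bst2 lay just below the line with 258 and 173 CPM (ratio interval 1.05 to 2.15). Oas1a was the only member under a ratio of 1, at 0.886 (0.519 to 1.51). Below 50 UMIs, Ifit3 had 28 and 10 UMIs and Isg20 16 and 4. With cells thinned to 800 UMIs, 1 member instead of 5 was both measured and past 1.5-fold.

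**Figure D4:**
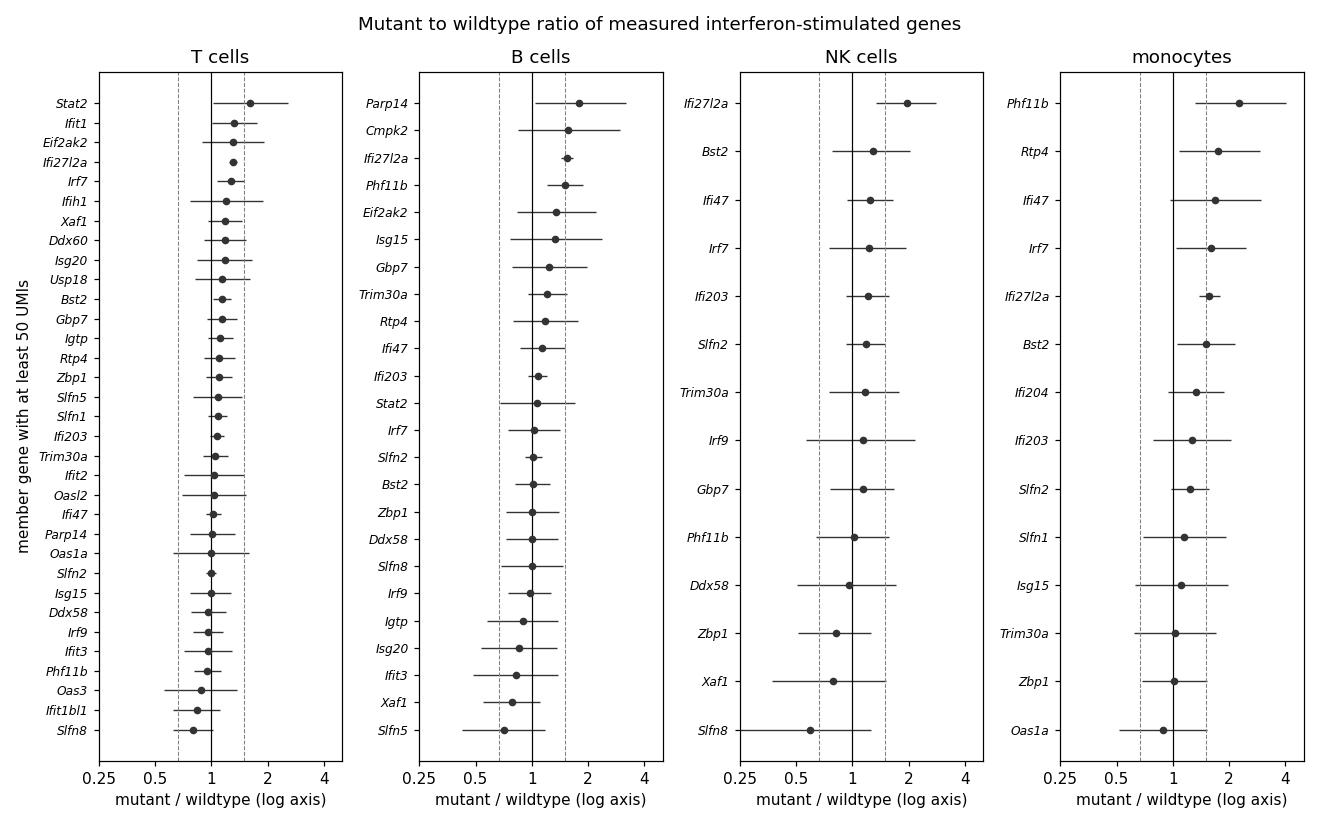
Mutant to wildtype ratio (log axis) of each member with at least 50 UMIs over both libraries, by type, with 95% counting intervals; dashed lines mark 1.5-fold either way. In monocytes 13 of 14 ratios are above 1, beside 45.8% of all genes measured there, and in T cells 24 of 33, beside 53.7%.

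The monocytes of the libraries were not the same mixture. More UMIs of the classical markers (Ly6c2, Ccr2, Chil3, Fn1) than of the non-classical markers (Ace, Treml4, Spn, Eno3) were found in 50 of 102 mutant monocytes (49.0%, 39 to 59.1%) and in 29 of 105 wildtype monocytes (27.6%, 19.3 to 37.2%), and 9 and 21 monocytes lay within 1 UMI of the line. The summed level was 6155 and 5690 CPM in the more classical cells, a ratio of 1.08 (0.987 to 1.19). In the more non-classical cells it was 3597 and 2201 CPM, a ratio of 1.63 (1.41 to 1.90). The more classical cells had the higher level in both libraries and were more frequent in the mutant. The pooled ratio of 1.42 thus joined a small difference, a larger one and the unlike mixture. These parts were not separated. Ifi27l2a was at 1.07 (0.918 to 1.24) in the more classical cells and at 2.43 (1.89 to 3.14) in the more non-classical ones, and Irf7 at 0.948 (0.576 to 1.59) and 3.51 (1.41 to 9.89), the latter on 19 and 7 UMIs. The difference between the subsets was not tested. Platelet marker UMIs were present in 51.0% of mutant and 25.7% of wildtype monocytes (1122 and 453 CPM summed), and their part in the result was not tested.

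Within T cells the ratio of the sum was 1.14 (1.10 to 1.19) in those with a Cd8 UMI and no Cd4 UMI, and 1.07 (1.0 to 1.15) in those with a Cd4 UMI and no Cd8 UMI. Ifi27l2a was at 1.48 (1.37 to 1.59) and 1.11 (0.982 to 1.24). Without Ifi27l2a the sums were at 1.06 (1.01 to 1.10) and 1.06 (0.970 to 1.15). In B cells without a UMI of Vpreb3, a marker of transitional cells, the sum was at 1.19 (1.13 to 1.25) and Ifi27l2a at 1.57 (1.43 to 1.72). Without Ifi27l2a the sum there was at 1.04 (0.974 to 1.10).

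The other lists of the pathway varied by gene. Of the other interferon-stimulated genes, 30 were measured in T cells. Ifitm3 was at least 1.5-fold higher (1.69, 1.26 to 2.28), beside 2.20% of all genes. Trim30d was at least 1.5-fold lower (0.664, 0.394 to 1.09), beside 2.60%. Above a ratio of 1 were 9 of the 30 (30.0%, beside 53.7% of all genes). In B cells 27 were measured and 3 were higher, beside 3.39% of all genes: Gbp2 at 2.40 (1.57 to 3.75), Ifitm3 at 1.72 (1.10 to 2.75) and Trafd1 at 1.66 (1.10 to 2.54). Above a ratio of 1 were 16 of the 27 (59.3%, beside 54.5%). In NK cells none of 14 was higher, beside 4.13% of all genes, and Ms4a4c was lower (0.614, 0.233 to 1.37), beside 8.96%. Above a ratio of 1 was only 1 of these 14 (7.14%, beside 44.1% of all genes), while 10 of 14 members were above 1 there. In monocytes none of 8 was higher, beside 6.76% of all genes, and 1 was lower, beside 6.44%. Above a ratio of 1 were 4 of these 8, beside 45.8% of all genes.

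No UMI of a type I or type III interferon gene was found in the 4 types, for 11 listed genes in each library. Ifng had 57 UMIs in the mutant and 208 in the control library, with ratios of 0.563 in T cells (0.345 to 0.894) and 0.638 in NK cells (0.387 to 1.01). Among receptor and signalling genes Ifnar1 was at 61.2 and 60.7 CPM and Jak1 at 499 and 476 CPM in T cells. Socs3, a feedback inhibitor of cytokine receptors, was lower in the mutant in T cells (0.591, 0.495 to 0.704) and B cells (0.555, 0.406 to 0.754). It was the only one of the list past 1.5-fold either way among 15 measured genes in T cells and 16 in B cells. Of all genes, 2.60% in T cells and 2.61% in B cells were at least 1.5-fold lower, and 2.20% and 3.39% higher. In monocytes 2 of 9 were at least 1.5-fold lower, beside 6.44% of all genes, among them the receptor gene Ifnar2 (0.615, 0.394 to 0.950). Of the nucleic acid sensing genes, 2 of 4 measured in NK cells were at least 1.5-fold higher, beside 4.13% of all genes. They were Tmem173 at 1.65 and Myd88 close to the line. Of class I presentation genes, 2 of 15 were above a ratio of 1 in T cells (13.3%, beside 53.7% of all genes), 4 of 14 in B cells (28.6%, beside 54.5%), 6 of 14 in NK cells (42.9%, beside 44.1%) and 2 of 14 in monocytes (14.3%, beside 45.8%). In NK cells 1 of these class I genes, Tap1, was at least 1.5-fold higher, beside 4.13% of all genes. In monocytes 2 were at least 1.5-fold lower, beside 6.44%, H2-K1 (0.667, 0.581 to 0.764) and H2-Q7 (0.544).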

How the data were processed

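Single-cell RNA of blood mononuclear cells was measured in 1 library of pooled mice for each genotype. Per the submitters' processing notes, the authors used Cell Ranger 2.1.1 and build mm10; the deposited values are raw UMI counts for 27998 genes and 737280 barcodes per library. Members and gene lists were chosen with earlier results of these data known.

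Cells needed at least 800 UMIs, 200 genes and at most 10% mitochondrial UMIs. A type needed at least 2 marker UMIs and 3 times those of the next type (T, B, NK, monocyte, and as competitors plasmacytoid dendritic cell, neutrophil, basophil and platelet); barcodes with over 10% haemoglobin UMIs were set aside, as were untyped ones. T cell receptor and immunoglobulin genes served as no marker. The marker rule removed mixed barcodes, and no doublet caller was applied except as an alternative (a Scrublet score above 0.2, in scanpy 1.11.5, marked 69 mutant and 133 wildtype cells). Computation used Python 3.11.15, NumPy 2.4.6, pandas 2.3.3 and SciPy 1.17.1.

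UMIs were summed per type and library and scaled to CPM. Ratios carry exact conditional 95% intervals (Clopper-Pearson), shares exact binomial and levels exact Poisson ones. A gene was measured with at least 50 UMIs over both libraries. High cells had at least 10 member UMIs and 4 times the expected number, from depth and the rate of the type over both libraries. A gene outside the members was compared between high and other cells when at least 3 UMIs were expected in the high cells. The steps were tested on simulated data.

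Named with values were, in each type, the 5 members with the most UMIs and up to 5 with the largest ratios, the 8 most gathered in high T cells, leading genes of the other lists, and Ifi27l2a, Isg15, Ifit3, Bst2, Irf7, Slfn1 and Slfn2; genes beyond these were chosen after their values were seen. Of 40 other interferon-stimulated genes 36 are listed in the files. Promoters were matched by symbol to RefSeq tables of GRCm38.p6, for 32 of 39 members. A gene that the rule also names is not reported here.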

Additional observations from a re-analysis of the deposited data

Results flagged for a closer look

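Barcodes that passed the cell filter but got no type from the marker rule, 277 in the mutant and 307 in the control library, lie outside the comparisons above and also had member UMIs: 1559 and 1619, or 2170 and 1714 CPM, a ratio of 1.27 (1.18 to 1.36). It is given because it is a signal in barcodes that no comparison used. These barcodes can hold mixtures of types, and their makeup was not tested.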

How the results depend on the processing

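No paired analysis was possible because each genotype had 1 library, and for the same reason no replicate could be left out. Summed ratios stayed above 1 in every alternative run, from 1.06 to 1.14 in T cells, 1.08 to 1.23 in B cells, 1.07 to 1.15 in NK cells and 1.08 to 1.92 in monocytes. Of the values under alternatives, 291 of the main comparisons kept their place, 90 moved and 1 reversed, and of single genes 230 kept it and 7 moved; the cause was not tested. "Share" below is the share of member UMIs in high cells, each member judged by the other 38, mutant first. Free RNA was not subtracted from single cells, so that alternative gave no values for high cells.

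With mitochondrial UMIs limited to 5%, 0 T cell members were higher by 1.5-fold. With no UMI of another type's markers, 1 B cell, 2 NK cell and 1 monocyte member were higher, the summed ratios were 1.16 in B cells and 1.57 in monocytes, the share was 4.26% in wildtype T cells and 8.00% and 10.3% in B cells, monocytes over T cells were 1.40 and 0.998 (reversed in the control library), and T over B cells was 1.22 in the control library. Thinned to 800 UMIs, 1 T cell member was lower, 1 B cell, 2 NK cell and 1 monocyte member were higher and 0 NK cell members lower. The thinned summed ratio was 1.92 in monocytes, and without high cells 1.08 in T cells, 1.16 in B cells and 2.19 in monocytes. Thinned high cells were 1.02% and 0.682% of T cells with shares of 3.98% and 2.50%, and 1.05% and 0.725% of B cells with 4.91% and 2.63%, and monocytes over T cells were 1.32 in the control library.

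At a minimum of 20 UMIs, 7 B cell members were higher and 1 lower, 2 NK cell members higher and 2 lower, and 10 monocyte members higher. With no minimum, 1 T cell member was lower, 8 B cell members higher and 2 lower, 7 NK cell members higher and 12 lower, and 14 monocyte members higher and 3 lower. At 2-fold, 0 T cell and 0 B cell members were higher, 0 NK cell members higher and 0 lower, and 1 monocyte member higher. The share over all genes was not computed under any alternative, so these counts of members have no background beside them.

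With high cells set at 6 UMIs and 3 times, they were 4.35% and 3.12% of T cells (shares 13.4% and 10.3%) and 5.56% and 3.99% of B cells (13.2% and 12.6%). At 15 UMIs and 6 times they were 0.444% and 0.467% of T cells (2.49% and 3.20%) and 0.484% and 0.543% of B cells (2.27% and 2.63%), and the monocyte ratio without them was 1.42. As the top 1% of cells they were 1.02% of mutant T cells (shares 5.66% and 5.74%) and 0.968% and 0.996% of B cells (3.78% and 5.50%). The summed ratio was 1.07 in Cd4 T cells, 1.08 in more classical monocytes (1.03 without high cells) and 1.63 in more non-classical ones (1.80).

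Both remaining alternatives were chosen after seeing the data. Leaving out barcodes that both libraries share moved nothing. Without Ifi27l2a the summed ratio was 1.06 in T cells (1.04 without high cells), 1.08 in B cells (1.09) and, without high cells, 1.39 in monocytes. The share was then 5.37% in wildtype T cells and 5.53% in mutant B cells, high B cells were 1.45% and 1.36%, monocytes over T cells 1.92 and 1.52, T over B cells 1.30 and 1.33, and B over NK cells 1.06 and 1.04.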

Other observations

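The remaining classes held few cells and enter no comparison. Cells typed as plasmacytoid dendritic cells, the main producers of type I interferon in blood, numbered 2 in the mutant and 13 in the control library, with 27 and 348 member UMIs or 3723 and 6617 CPM, the latter above the summed level of wildtype monocytes. Neutrophils (2 and 10 cells) were at 2691 and 4172 CPM, basophils (9 and 13 cells) at 490.4 and 482 CPM, platelet barcodes (26 and 3) at 3499 and 2534 CPM, and haemoglobin-rich barcodes (87 and 8) at 1158 and 968 CPM.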
